A study of Mus musculus with 20 samples.

Results

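The genes described here are 33 named genes of the antioxidant defence that the transcription factor NRF2 controls or works beside. They were taken as a fixed list of symbols, chosen with earlier results of these data known. Of the 33, 30 could be measured, out of 18193 genes tested on the arrays. The other 3 genes are the peroxiredoxins Prdx1, Prdx5 and Prdx6, for which no probe set carried that 1 symbol alone; 5 probe sets carried Prdx1 jointly with Gm21399. These 3 genes were not analysed here. The 30 genes fall into 6 classes by role, which are NRF2 with its inhibitor, oxidoreductases and other NRF2 targets, glutathione supply, the thioredoxin system, peroxiredoxins with sulfiredoxin, and enzymes that remove superoxide and peroxides.

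Total RNA from the liver of 20 male C57BL/6J mice, aged 8 weeks, was hybridised to Affymetrix 3' expression arrays, 1 array per mouse. All mice ate a diet with 45 kcal% fat for 4 weeks and were fasted for 16 h before the liver was taken. In 10 mice that diet was given alone (HFD), and in the other 10 it held 0.02% of MSXH, an extract of maple syrup named so in the labels (002MSXH). A low-fat group and a group given 005MSXH, both named in the series text, were not analysed here.

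NRF2, encoded by Nfe2l2, is held in the cytoplasm and sent for degradation by KEAP1, a sensor whose cysteines react with oxidants and electrophiles. Once released, NRF2 enters the nucleus, pairs with small MAF proteins and binds antioxidant response elements near genes for detoxification, glutathione synthesis and thiol reduction. The liver depends on these systems because it handles drugs, bile acids and the peroxides formed when fatty acids are burned.

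Each array gave levels on a log2 scale from 5.173 to 15.01, with array medians between 6.5216 and 6.5226. The spread between mice was strongly compressed in the deposited values. Over the 20 arrays the SD of a probe set was 1.07e-05 at the median and under 0.001 for 97.6% of probe sets. Differences are therefore given as standardized differences, the 002MSXH mean minus the HFD mean divided by the pooled SD within groups, with 95% intervals, and never as folds of RNA. A mouse's level is likewise given as its deviation from the gene's mean over the 20 mice, in pooled SDs. Hepatocyte markers, tested for 11 genes of 12, averaged between 13.224 and 13.231 on every array. Skeletal muscle markers stood apart in 2 mice: their mean level was 7.902 in 002MSXH 4 and 7.404 in 002MSXH 6, against 6.396 to 6.449 in HFD and at most 6.465 in the other 002MSXH mice. Adipocyte markers in 002MSXH 4 and 6 had mean deviations of 1.09 and 1.19 SD, against -0.30 to 0.52 in HFD. Their mean levels, 7.301 and 7.305, lay inside the HFD range of 7.287 to 7.311. Macrophage and Kupffer cell markers had mean deviations of -0.92 and -1.05 SD in these 2 mice, against -0.78 to 0.91 in HFD. The differences of the 30 genes without these 2 mice are given below where they turned or moved by over 1.5 times. In whole liver, fewer cells of a type and less RNA per cell cannot be told apart.

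The upstream sequences of the genes were searched for the core of the antioxidant response element, TGACNNNGC, on both strands. RefSeq windows of build GRCm38.p6, 250 bases before to 50 bases after the transcription start, were matched for 28 of the 33 genes. The core was in the window of 7 genes: Nfe2l2, Srxn1, Gclm, Prdx1, Prxl2b, Txnrd1 and Sod1. It occurs in 12.4% of all 32851 windows of that length and in the windows of 14.0% of 27025 genes, and a match of 9 letters with free positions is a description of sequence and not a site of binding. Distances are counted from the start, with negative values upstream: the core lay at -240 to -232 in Nfe2l2, -134 to -126 in Gclm, -133 to -125 in Prdx1, -121 to -113 in Prxl2b, -92 to -84 in Txnrd1, -56 to -48 in Sod1 and 28 to 36 in Srxn1. No window was matched for Gclc, Gsr, Hmox1, Prdx6 and Sod3. The 250 bases upstream are printed for 3 genes, Prxl2b because it came closest to the test's threshold, Gclm because it varied together with its partner subunit, and Nfe2l2 because it encodes NRF2 itself. Capitals mark the core, read on the opposite strand in Prxl2b and Gclm. The stretches are chr4:154899044-154899293 (minus strand) for Prxl2b, chr3:122245307-122245556 (plus strand) for Gclm, chr2:75704664-75704913 (minus strand) for Nfe2l2.
Prxl2b: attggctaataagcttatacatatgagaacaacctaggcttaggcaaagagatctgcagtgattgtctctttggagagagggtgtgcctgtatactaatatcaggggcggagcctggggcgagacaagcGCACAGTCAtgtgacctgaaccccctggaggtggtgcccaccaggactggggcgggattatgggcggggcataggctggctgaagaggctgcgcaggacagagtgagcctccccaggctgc
Gclm: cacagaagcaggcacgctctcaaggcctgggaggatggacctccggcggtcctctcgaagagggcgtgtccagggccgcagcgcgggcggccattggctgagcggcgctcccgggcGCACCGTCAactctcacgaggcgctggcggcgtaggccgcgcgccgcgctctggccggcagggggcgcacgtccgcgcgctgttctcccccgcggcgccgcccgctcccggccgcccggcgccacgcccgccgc
Nfe2l2: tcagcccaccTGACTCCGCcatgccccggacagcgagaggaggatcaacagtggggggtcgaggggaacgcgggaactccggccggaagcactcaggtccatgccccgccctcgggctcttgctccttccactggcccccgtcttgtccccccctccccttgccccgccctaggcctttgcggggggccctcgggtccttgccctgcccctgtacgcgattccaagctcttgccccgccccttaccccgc

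The comparison of 002MSXH with HFD asks whether the extract changed the hepatic expression of these genes when eaten with the high-fat food. None of the 30 genes passed an adjusted p of 0.05 in limma, and the smallest adjusted p was 0.0863, for Prxl2b. Over all 18193 genes 0 passed as well (0%). The rank sum test with the same adjustment called 4 genes, 0 of them among the 30. At an adjusted p of 0.10 Prxl2b was the 1 gene of the 30 called, against 12 genes in all (0.0660%). Because the list was chosen with earlier results of these data known, that count cannot be read as a result about the list. At an unadjusted p of 0.05 there were 3 of the 30, with Prxl2b and Slc7a11 higher and Sod3 lower in 002MSXH, beside 1982 of all genes (10.9%), of which 1197 were higher (6.58%) and 785 lower (4.31%). The 3 in 30 are thus no larger a share than among all genes.

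The standardized difference was above 0 for 19 of the 30 genes and below 0 for 11, beside 54.7% of all genes above 0. The median over the 30 was 0.237, and over all genes 0.0669. In 19 of the 30 the difference was smaller than 0.5 SD in either direction. The 2 groups overlapped in every one of the 30, while in all 18193 genes they did not overlap in 4 (0.0220%). The direction counts depended on the scale: 8 of the 28 genes with a value were above 0 after quantile normalization and 6 of 30 after array centring, beside 1285 of 17985 and 501 of 18193 of all genes. Quantile normalization left the other genes, here Sod1 and Gpx1, at 1 equal value on all arrays. Both scalings thus move nearly all genes down in 002MSXH, with a median over all genes of -0.553 and -0.661. Without 002MSXH 4 and 6, 23 of 30 were above 0 on the deposited scale, 16 of the 25 with a value after quantile normalization and 20 of 30 after centring. The 5 without a value there were Gclm, Prdx2, Sod1, Gpx1 and Gpx4. Of all genes, those above 0 without the 2 mice were 9934 of 18193, 9895 of 17620 and 7638 of 18193 in the same order. Over the probe sets with 1 symbol, the array median was 6.64615 in 002MSXH 4 and 6.64576 in 002MSXH 6, and between 6.64414 and 6.64461 on the other 18 arrays. That offset is many times the SD of most genes. Centring subtracted not these medians but those over all probe sets, which lay between 6.5216 and 6.5226.

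On the deposited scale, leaving out 002MSXH 4 and 6 turned the sign of 4 of the 30 genes and in all turned or moved 18 of them by over 1.5 times. The 4 that turned were Hmox1 at 0.106, Gsr at 0.0739, Txn1 at 0.0758 and Sod2 at 0.135, all near 0 with and without the 2 mice. Larger without them were Ephx1 (0.573 in place of 0.239), Aox1 (0.813 for 0.495), Osgin1 (0.403 for 0.235), Gclm (0.746 for 0.476), Txnrd1 (0.449 for 0.228), Prdx4 (0.680 for 0.424) and Srxn1 (-0.484 for -0.290). Nearer 0 without them were Keap1 (-0.143 in place of -0.312), Cbr1 (0.0175 for 0.159), Gss (-0.0599 for -0.248), Txn2 (-0.208 for -0.399), Sod1 (0.0234 for 0.0604), Gpx1 (-0.234 for -0.468) and Gpx3 (0.347 for 0.706).

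**Figure D1:**
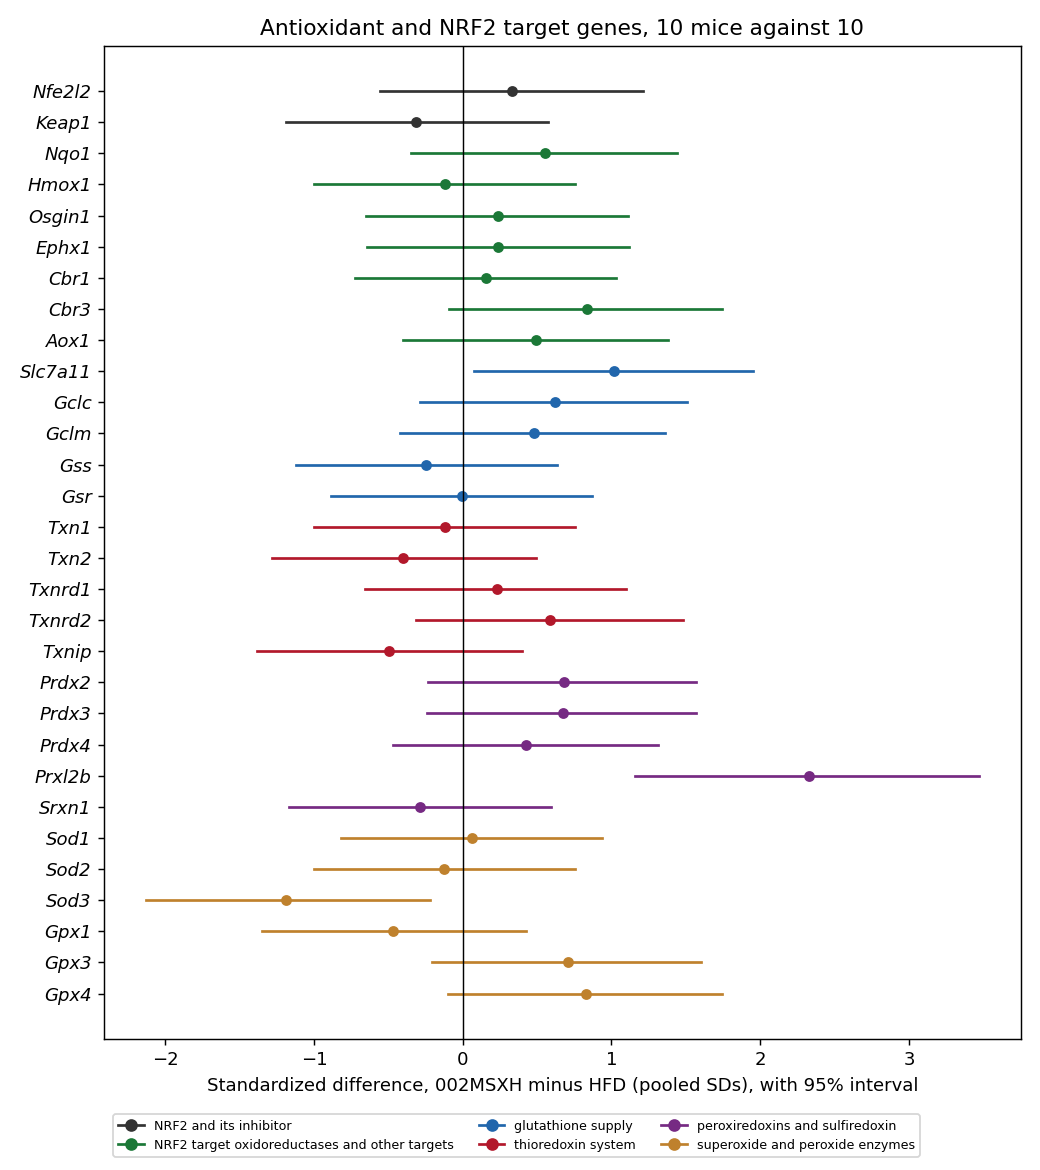
Standardized difference between 10 002MSXH and 10 HFD mice (horizontal axis, pooled SDs) for the 30 genes measured, coloured by class, with points for the estimate and lines for the 95% interval. The interval of Prxl2b, 1.16 to 3.47, lies farthest from 0, and 27 of the 30 intervals include 0.

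Prxl2b, formerly Fam213b, encodes a thioredoxin-like protein of the peroxiredoxin-like family that reduces prostaglandin H2 to prostaglandin F2alpha. In HFD its deviation ran from -2.29 SD in HFD 10 over a median of -1.28 to 0.78 in HFD 8. In 002MSXH it ran from -0.45 in 002MSXH 2 over a median of 1.09 to 3.13 in 002MSXH 7. Of the HFD mice 1 of 10 lay above the gene's mean, and of the 002MSXH mice 9 of 10, with HFD 1 and HFD 8 inside the range of the 002MSXH mice, and 002MSXH 2, 5 and 10 inside that of the HFD mice. On the deposited scale this was a mean of 7.634537 in HFD and 7.634843 in 002MSXH, a difference of 0.000307 with a pooled SD of 0.000131. The standardized difference was 2.33 (95% interval 1.16 to 3.47, limma adjusted p = 0.0863), and the 002MSXH mouse was higher in 96 of the 100 pairs of mice that join the groups. Leaving out each mouse in turn gave 2.23 to 2.83. Without 002MSXH 4 and 6 the difference was 2.15, with an adjusted p of 0.171. Quantile normalization brought it to 0.0256 and array centring to 0.529, and without 002MSXH 4 and 6 these scalings gave 1.12 and 1.88. Prxl2b is on 1 probe set, so no other probe set could be set beside it.

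Among the other peroxiredoxins, which reduce peroxides through a reactive cysteine, Prdx2 of the cytosol was 0.678 SD higher, Prdx3 of mitochondria 0.674 and Prdx4 of the endoplasmic reticulum 0.424. None of the 3 passed, with adjusted p of 0.611, 0.608 and 0.765 in limma, and all 3 were below 0 after centring, at -0.631, -0.617 and -0.609. Prdx2 and Prdx3 were also below 0 after quantile normalization. A second probe set of Prdx2 gave 1.68 (adjusted p = 0.215 over all probe sets), a value chosen after it was seen, while the other 3 probe sets of Prdx4 were below 0. Srxn1, the sulfiredoxin that restores overoxidised peroxiredoxins and a classical NRF2 target, was at -0.290 (adjusted p = 0.847). Its 4 probe sets ran from -0.339 to 0.525.

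Nfe2l2 and Keap1 differed little between the diets. The deviation of Nfe2l2 ran from -1.55 SD in HFD 2 to 0.78 in HFD 4, with a median of 0.01, and in 002MSXH from -1.67 in 002MSXH 8 to 2.65 in 002MSXH 9, with a median of 0.04. The HFD range lay wholly inside that of 002MSXH. The standardized difference was 0.330 (-0.557 to 1.21, adjusted p = 0.821) for Nfe2l2 and -0.312 (-1.19 to 0.574, adjusted p = 0.838) for Keap1. Nfe2l2 fell on the other side of 0 after quantile normalization, at -0.310, and after centring, at -0.322. A second probe set of Nfe2l2, of lower level (6.56 against 9.56), gave 0.747 (limma adjusted p = 0.565 over all probe sets). The mean of both probe sets gave 0.791. For Keap1 the second probe set gave 0.0104 and the mean of both -0.118.

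Of the 7 oxidoreductases and other targets, 6 were above 0 and 0 passed, with a median of 0.239, beside 54.7% and 0.0669 over all genes. After quantile normalization and after centring 3 of 7 were above 0, beside 1285 of 17985 and 501 of 18193 of all genes. The medians were then -0.0642 and -0.0398, beside -0.553 and -0.661 over all genes. Cbr3, a carbonyl reductase, had the smallest p of the class. In HFD it ran from -2.21 SD in HFD 9 over -0.40 to 1.59 in HFD 4, and in 002MSXH from -1.03 in 002MSXH 5 over 0.59 to 1.61 in 002MSXH 7. Above the gene's mean lay 2 of 10 HFD and 8 of 10 002MSXH mice, yet the 002MSXH range lay almost wholly inside that of HFD. Its standardized difference was 0.835 (-0.0933 to 1.74, adjusted p = 0.524), and it turned to -0.619 after quantile normalization and -0.646 after centring.

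Nqo1, the quinone reductase often used as a readout of NRF2, was at 0.556 (-0.346 to 1.44, adjusted p = 0.677), and at -0.636 and -0.570 under the same scalings. Its level lay below the median of every array, as did that of Slc7a11. Hmox1, which breaks down heme, was at -0.121, and the carbonyl reductase Cbr1 at 0.159. Ephx1, a microsomal epoxide hydrolase, was at 0.239, and the molybdenum enzyme aldehyde oxidase Aox1 at 0.495. Osgin1, a growth inhibitor induced by oxidative stress, was at 0.235 although it is the most variable of the 30 genes. Its level was 8.5349 to 8.6709 in HFD, with a median of 8.5778, and 8.5469 to 8.6743 in 002MSXH, with a median of 8.5872. The pooled SD of Osgin1, 0.0415, is at the 99.7th percentile of all genes, so its deviation is among the few that span a visible part of the scale.

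Glutathione supply rests on cystine import, on the 2 subunits of glutamate-cysteine ligase and on glutathione synthetase, while glutathione reductase recycles the oxidised form. Slc7a11, the cystine-glutamate exchanger, ran from -3.10 SD in HFD 6 over -0.21 to 0.60 in HFD 8, and in 002MSXH from -0.22 in 002MSXH 3 over 0.13 to 2.34 in 002MSXH 10. No 002MSXH mouse was far below the gene's mean, while HFD 6 stood alone at the bottom. Its standardized difference was 1.02 (0.0724 to 1.95, unadjusted p = 0.0318, adjusted p = 0.408 in limma). Its second probe set gave -0.515, the mean of both probe sets -0.0619, and the scalings -0.700 and -0.628.

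Gclc, the catalytic subunit, was at 0.622 (-0.285 to 1.51, adjusted p = 0.631), and Gclm, the modifier subunit, at 0.476 (adjusted p = 0.728). Gclc ran from -1.65 SD in HFD 10 to 2.18 in HFD 3, and from -0.64 in 002MSXH 4 to 1.52 in 002MSXH 9. Gclm ran from -0.99 in HFD 7 to 2.37 in HFD 3, and from -1.20 in 002MSXH 4 to 2.26 in 002MSXH 9. In both genes the same mouse was thus the highest of its group, and in 002MSXH the same mouse the lowest. Gclc stayed above 0 under both scalings, while Gclm turned to -0.447 and -0.424. The synthetase Gss was at -0.248 and the reductase Gsr at -0.00660. A second probe set gave 0.150 for Gss and, at a similar level (9.21 against 9.28), -0.778 for Gsr. The mean of both probe sets gave -0.0810 for Gss and -0.324 for Gsr.

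**Figure D2:**
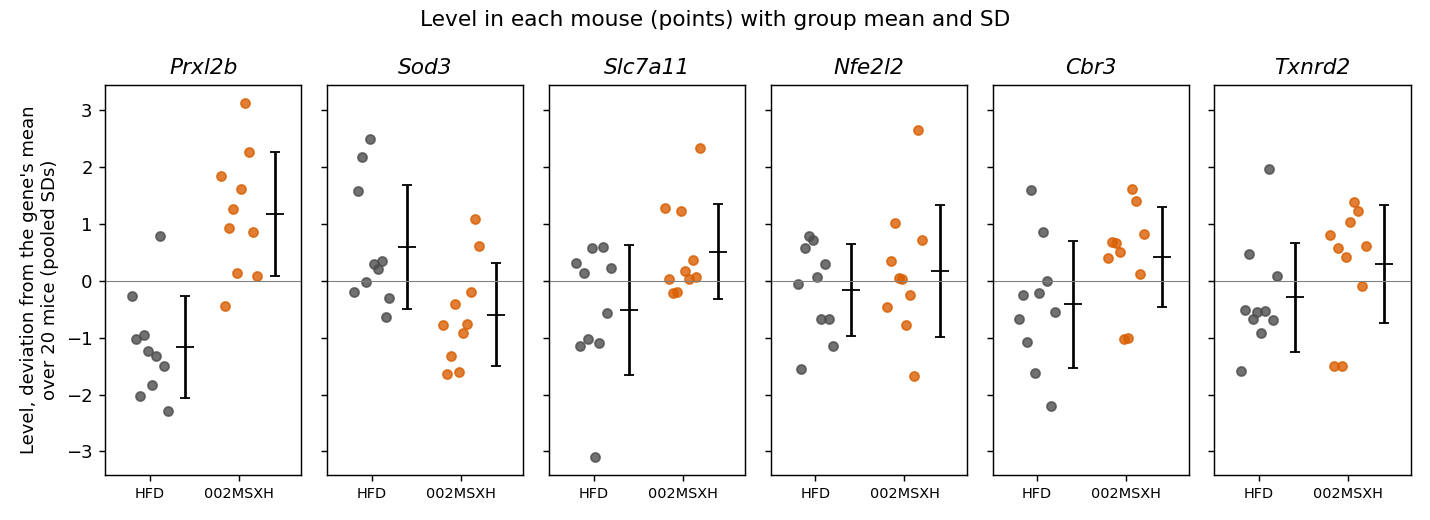
Deviation of each mouse from the gene's mean over 20 mice (vertical axis, pooled SDs) for the 3 genes at an unadjusted p under 0.05 and the gene of smallest p of each other class, with 1 point per mouse and the group mean and SD beside the points. Prxl2b has 1 of 10 HFD and 9 of 10 002MSXH mice above 0, and the ranges of the 2 groups overlap in each of the 6 genes.

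In the thioredoxin system 2 of 5 genes were above 0 and the median was -0.122, beside 54.7% and 0.0669 over all genes. Txnrd2, the thioredoxin reductase of mitochondria, had the smallest p, with -1.59 SD in HFD 1 over -0.54 to 1.96 in HFD 8, and -1.50 in 002MSXH 4 over 0.60 to 1.38 in 002MSXH 7. The highest mouse of all was thus an HFD mouse, although the median was higher in 002MSXH. Its standardized difference was 0.589 (-0.316 to 1.48, adjusted p = 0.664), with -0.393 after quantile normalization and -0.616 after centring. Txnrd1, the cytosolic reductase, was at 0.228, and at -0.793 and -0.642 under the scalings. Txn1 and Txn2, the thioredoxins of cytosol and mitochondria, were at -0.122 and -0.399. Txnip, the arrestin-like protein that binds thioredoxin and limits glucose uptake, was at -0.498 (adjusted p = 0.715), with 33 of 100 pairs higher in 002MSXH. Its second probe set gave -0.624, and no scaling turned it.

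Sod3, the superoxide dismutase of the extracellular space, was the 1 gene of the 30 below 0 at an unadjusted p of 0.05. It ran from -0.64 SD in HFD 9 over 0.26 to 2.50 in HFD 5, and from -1.64 in 002MSXH 2 over -0.77 to 1.08 in 002MSXH 9. The 3 highest values were all in HFD, and 2 of 10 002MSXH mice lay above the gene's mean against 6 of 10 HFD mice. Its standardized difference was -1.19 (-2.13 to -0.217, unadjusted p = 0.0142, adjusted p = 0.340 in limma), with -0.682 on a second probe set and 17 of 100 pairs higher in 002MSXH. Leaving out each mouse in turn gave -1.47 to -1.07. After quantile normalization the difference was -0.626 and after centring -0.767, neither at an unadjusted p under 0.05, and quantile normalization without 002MSXH 4 and 6 turned it to 0.0328. The cytosolic Sod1 and the mitochondrial Sod2 were at 0.0604 and -0.127.

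Of the glutathione peroxidases, Gpx4, which reduces lipid hydroperoxides in membranes, was at 0.829 (-0.0979 to 1.74, adjusted p = 0.524), with 76 of 100 pairs higher in 002MSXH. It turned to -0.447 and -0.636 under the scalings. Gpx1, the main cytosolic enzyme of liver, was at -0.468 (adjusted p = 0.733). Gpx3, the secreted form, was at 0.706 (-0.209 to 1.60, adjusted p = 0.585) and had its highest value, 3.10 SD, in 002MSXH 4, one of the mice with high muscle markers. All HFD mice lay between -0.73 and 0.25. Without 002MSXH 4 and 6 its difference was 0.347. The part of the muscle or adipocyte markers in the value of Gpx3 was not tested.

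**Figure D3:**
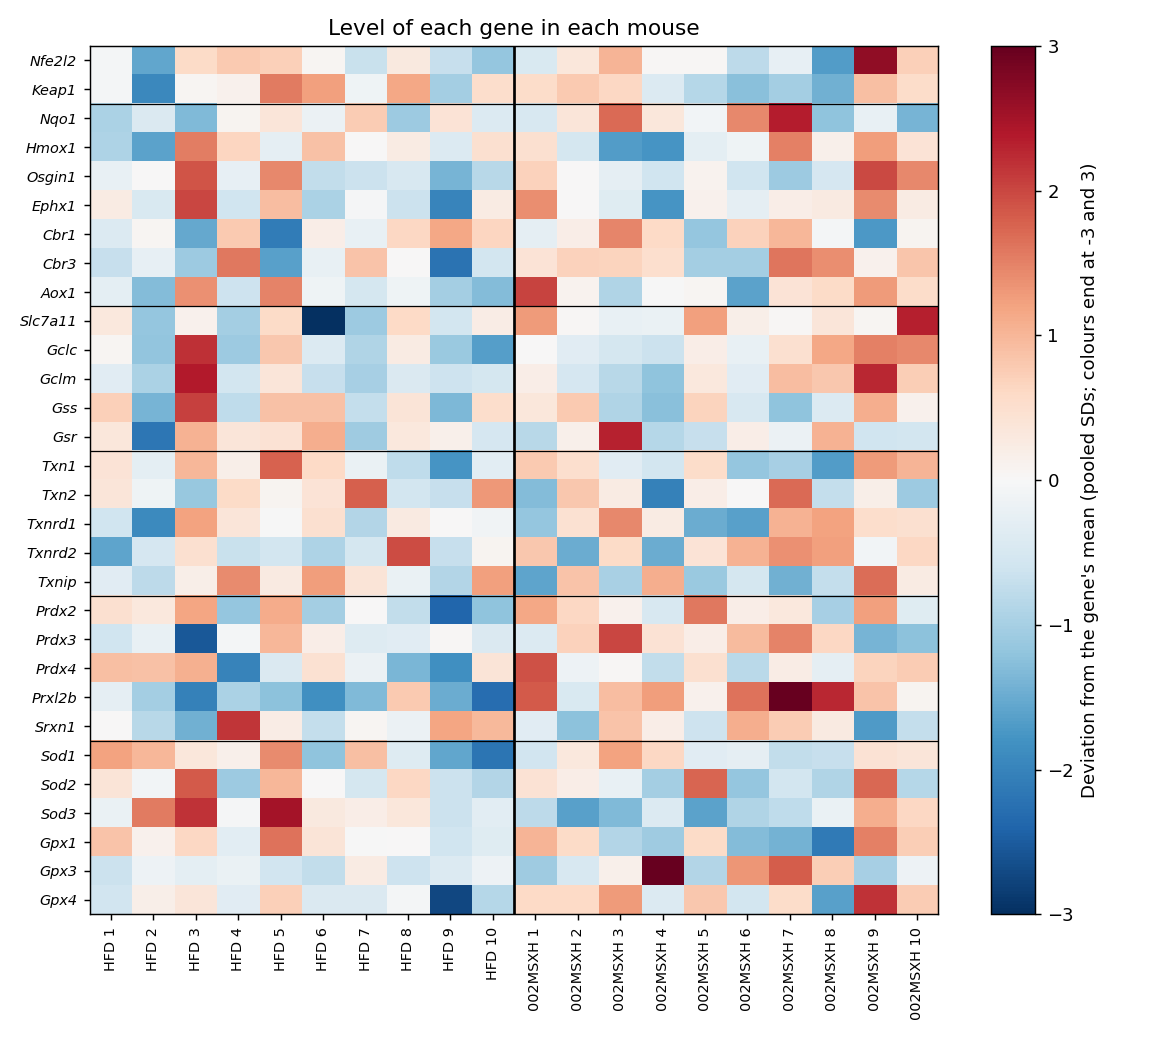
Deviation of each of the 30 genes (rows, ordered by class with lines between classes) in each of the 20 mice (columns, HFD left and 002MSXH right of the vertical line), in pooled SDs, red above and blue below the gene's mean. The row of Prxl2b separates the groups most, while HFD 3 and 002MSXH 9 are red in both Gclc (2.18 and 1.52) and Gclm (2.37 and 2.26).

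Further lists of genes around NRF2 were looked at in the same fit, and 0 genes of any of them passed. Of the partners and regulators of NRF2 turnover, 5 of 15 were above 0 with a median of -0.0630 and none at an unadjusted p of 0.05, where 10.9% of all genes were. After quantile normalization and after centring 0 of the 15 were above 0, beside 1285 of 17985 and 501 of 18193 of all genes. Without 002MSXH 4 and 6 these scalings gave 11 of the 14 with a value and 4 of 15. Of all genes 9895 of 17620 and 7638 of 18193 were then above 0. Bach1, a repressor at antioxidant response elements, was at -0.706 and the small MAF gene Mafk at -0.539. Of the glutathione S-transferases, 20 of 22 were tested and 15 were above 0, with a median of 0.236. At an unadjusted p of 0.05 there were 5 of 20, of which 4 were higher and 1 lower, beside 10.9% of all genes, 6.58% higher and 4.31% lower. Above 0 were 5 of the 18 transferases with a value after quantile normalization and 4 of 20 after centring, with medians of -0.341 and -0.285. Those medians stand beside -0.553 and -0.661 over all genes. Without 002MSXH 4 and 6 the counts were 12 of the 17 with a value and 15 of 20. The smallest p were those of Mgst2 at -1.38 (-2.35 to -0.381, adjusted p = 0.311) and Gsto1 at 1.21 (0.234 to 2.15, adjusted p = 0.341), and Gsto1 turned under both scalings.

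Of other NRF2 targets, 18 of 24 were tested, 11 were above 0, and 1 of 18 was at an unadjusted p of 0.05 (10.9% of all genes), the transporter gene Abcc1 at 0.938 (adjusted p = 0.451). Taldo1, the transaldolase of the pentose phosphate pathway, was at 0.837, and both turned under both scalings. Of the other thiol and peroxide enzymes, 28 of 29 were tested, 17 were above 0 and 3 of 28 were at an unadjusted p of 0.05, 2 higher and 1 lower, again beside 10.9% of all genes. Nucleoredoxin, Nxn, was at 1.41 (adjusted p = 0.271) and turned under both scalings, and Gpx6 was at -1.24 (adjusted p = 0.317). The lists' medians of 0.146 and 0.142 stand beside 0.0669 for all genes. After quantile normalization 1 of 17 other targets and 2 of 26 thiol and peroxide enzymes were above 0, beside 1285 of 17985 genes. After centring it was 2 of 18 and 0 of 28, beside 501 of 18193. Without 002MSXH 4 and 6 it was 11 of 16 and 16 of 25 after quantile normalization, beside 9895 of 17620 genes. After centring without them it was 11 of 18 and 15 of 28, beside 7638 of 18193.

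Between mice of the same diet, by contrast, many of these genes varied together. Correlations were taken over the 20 mice after removing each group's mean, and tested by permuting mice within groups 100000 times, two-sided. Gclc and Gclm, the subunits of 1 enzyme, correlated at r = 0.87 and rho = 0.82, with adjusted permutation p of 5e-05 and 0.000100 over 5 pairs chosen for the genes' roles; the unadjusted p of r, 1e-05, is the smallest that the permutations can give. Within HFD r was 0.88 and within 002MSXH 0.90. Without 002MSXH 9 and HFD 3, which lay farthest out in Gclc, it was 0.77, and without 002MSXH 4 and 6 it was 0.87. Gclm was 6th among the 18192 other genes in the strength of its correlation with Gclc, and Gclc 4th for Gclm. After quantile normalization r was 0.39, with a permutation p of 0.101, and after centring 0.57.

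Nfe2l2 and Keap1 correlated at r = 0.69 and rho = 0.73 (adjusted permutation p of 0.00115 and 0.00155), with 0.66 within HFD and 0.75 within 002MSXH. Without 002MSXH 8 and 9, the farthest in Nfe2l2, r was 0.66. As many as 1.06% of all genes correlated with Nfe2l2 at least as strongly. Nqo1 and Gclm, both targets of NRF2, did not correlate positively (r = -0.38, rho = -0.47, adjusted permutation p of 0.192 and 0.0889). Txnrd1 and Srxn1, also both targets, gave r = 0.04 and rho = 0.01 (adjusted permutation p of 0.874 and 0.968). Prdx2, abundant in red cells, gave r = 0.11 with the red cell membrane gene Slc4a1 (rho = 0.12, adjusted permutation p of 0.766 and 0.755). These last 3 pairs rest on the scale. After quantile normalization r was 0.82, 0.66 and 0.98 (permutation p of 0.101, 0.00725 and 0.0104). After centring, where 1 offset per array is subtracted from all genes, r was 0.92, 0.84 and 1.00 (permutation p of 0.00830, 0.000150 and 5e-05).

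**Figure D4:**
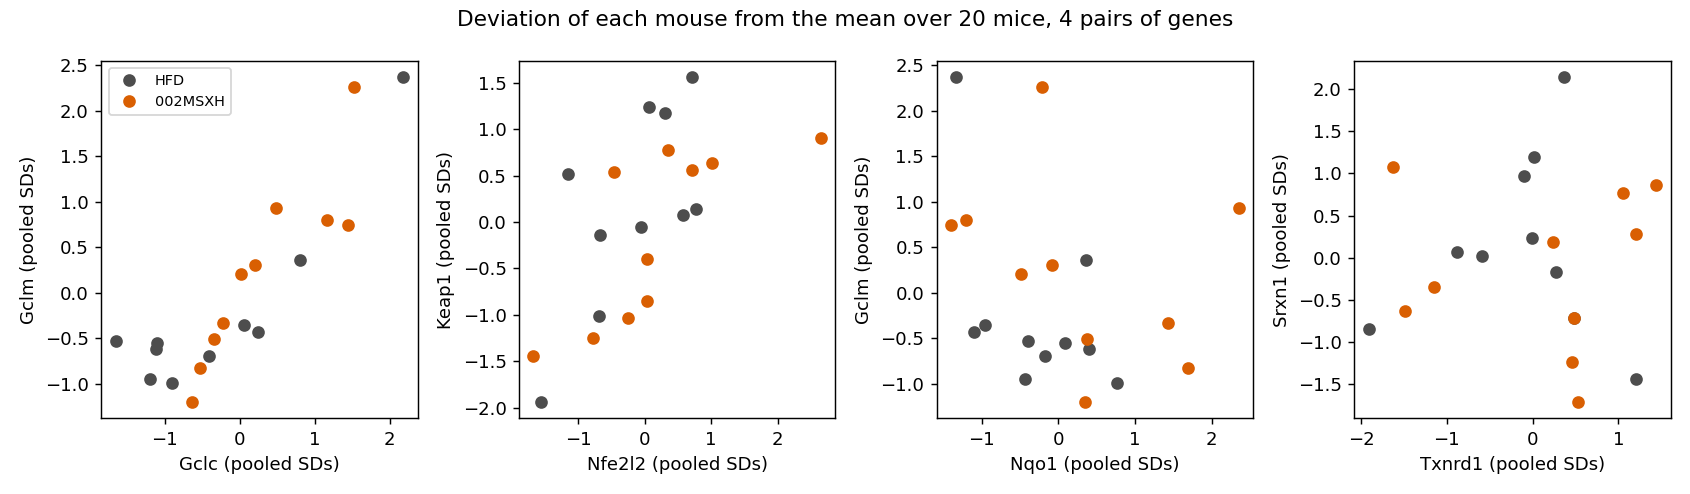
Deviation of each mouse from the gene's mean (pooled SDs) for 4 pairs of genes, with 1 point per mouse in grey for HFD and orange for 002MSXH. Gclc and Gclm rise together in both groups (r = 0.87), as do Nfe2l2 and Keap1 (r = 0.69), while Nqo1 with Gclm (r = -0.38) and Txnrd1 with Srxn1 (r = 0.04) show no such line.

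All 435 pairs of the 30 genes were then computed, a step added after the data were seen. Of these, 48 passed an adjusted permutation p of 0.05 in both r and rho, 32 positive and 16 negative, with a median r of 0.09 over all pairs and a range from -0.80 to 0.91. Without the 2 mice farthest out in the first gene of a pair, all 48 kept their sign, and r was nearest 0 for Osgin1 with Srxn1, at -0.40. An absolute r of 0.6 or more was reached by 76 of 435 pairs (17.5%), beside 2.31% of all pairs of genes on the array. Among the 26 of the 30 genes above the median level it was 71 of 325 (21.8%), beside 4.72% of all pairs of genes above that level. Genes on 1 set of arrays are not independent of each other, and the share was not tested against other lists. The pairs of all genes were not matched for spread, and 10 of the 30 genes had an SD above the 90th percentile. The 435 pairs were not recomputed under the scalings.

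The strongest pair was Txn1 and Gpx1, at r = 0.91 and rho = 0.93 (adjusted permutation p of 0.00109 and 0.00217), with 0.86 within HFD, 0.98 within 002MSXH and 0.93 without HFD 5 and HFD 9. Both products serve peroxide removal, Txn1 by reducing peroxiredoxins and Gpx1 directly. Osgin1 followed Txn1 (r = 0.83, rho = 0.87) and Gpx1 (r = 0.77, rho = 0.86), and Gpx4 followed Txn1 (r = 0.79, rho = 0.70). Prdx2 and Sod2 correlated at 0.78, and Ephx1 and Gclm at 0.77. Gsr and Txnrd1, the reductases for glutathione and thioredoxin that both use NADPH, correlated at 0.68, with 0.91 within HFD, 0.53 within 002MSXH and 0.50 without 002MSXH 3 and HFD 2.

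Cbr1 had 10 partners among the 29 other genes, 9 of them negative, the most negative partners of any of the 30. Its r was -0.80 to Osgin1, -0.78 to Sod2, -0.76 to Prdx2, -0.73 to Txn1 and -0.72 to Gpx1, and 0.65 to Srxn1. Counting pairs that did not pass as well, r was below 0 with 19 of 29 genes for Cbr1, as for Srxn1 and Prdx3. For Nqo1 and Gpx3 it was below 0 with 20 of 29. Srxn1 went against Sod2 (r = -0.71) and Gpx1 (r = -0.66), and Gpx3 against Gpx1 (r = -0.70). Gpx1 had 10 partners, Txn1 and Sod2 8 each and Osgin1 7. Prxl2b, Slc7a11, Cbr3, Prdx4, Sod1, Txn2, Txnip and Txnrd2 had none. For Prxl2b, the gene nearest the threshold between diets, r ran from -0.46 with Txnip to 0.49 with Txnrd2. That no pair of Prxl2b passed does not show that it varied apart from the other genes. Nqo1 had 1 partner, Prdx3 (r = 0.71, rho = 0.76).

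**Figure D5:**
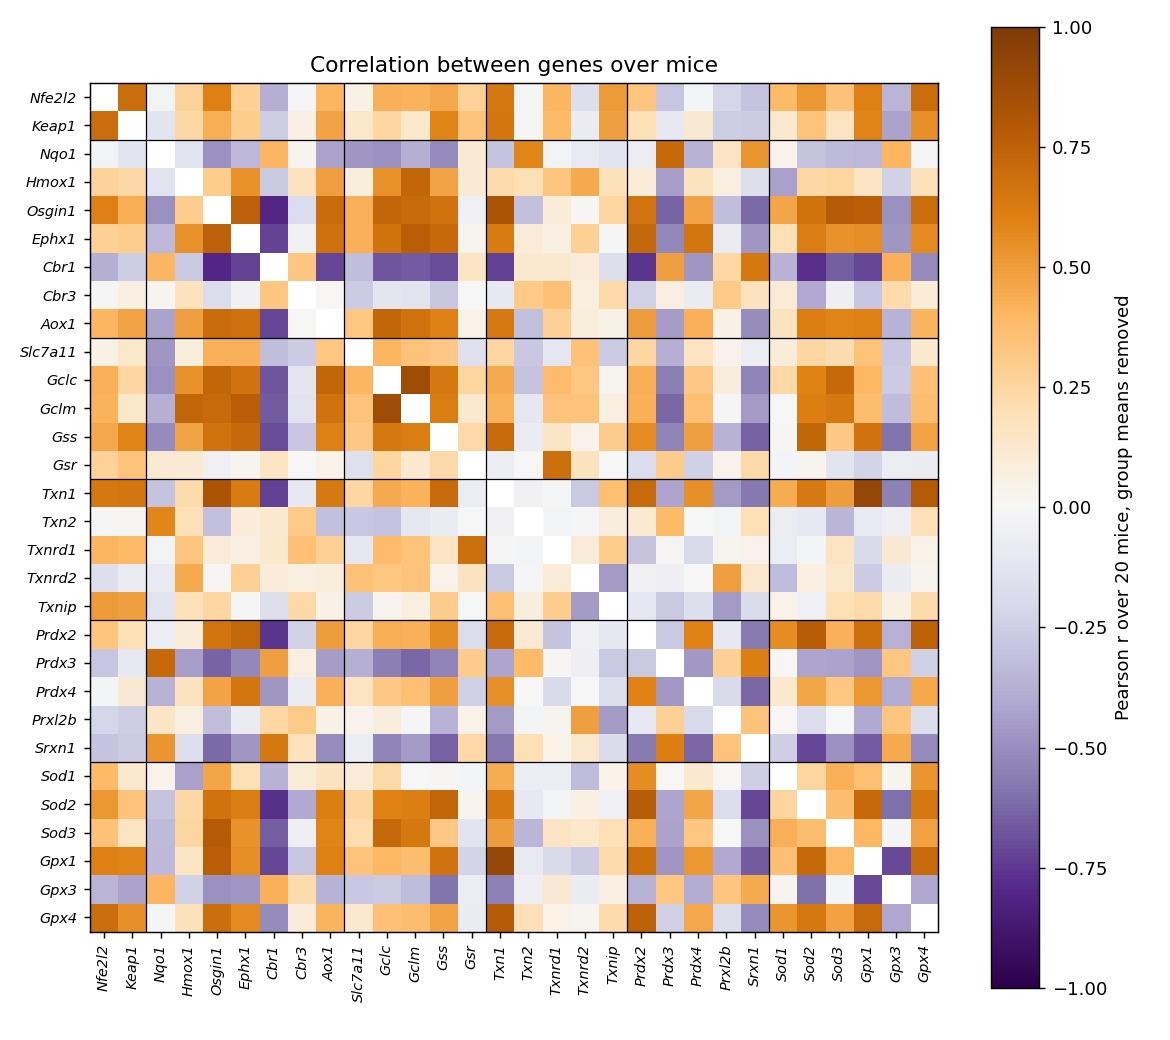
Pearson correlation of each pair of the 30 genes over 20 mice with group means removed, orange for positive and purple for negative, in the order of the classes, with the diagonal left blank. Txn1 and Gpx1 (0.91) and Gclc and Gclm (0.87) are the strongest orange cells. The rows of Cbr1, Srxn1, Prdx3, Nqo1 and Gpx3 hold more purple than orange cells, and those of Prxl2b and Txn2 are mostly pale.

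Marker lists of cell types were set beside Gclc, Gpx1 and Nfe2l2 only, a step added after the data were seen. The mean deviation of 11 hepatocyte markers correlated with Gpx1 at r = -0.68 and rho = -0.70 (adjusted permutation p of 0.00144 and 0.0142 over 24 relations), with -0.84 within HFD, -0.79 within 002MSXH and -0.62 without the farthest 2 mice. It correlated with Nfe2l2 at r = -0.59 and rho = -0.64 (adjusted permutation p of 0.0170 and 0.0272). The 8 endothelial markers correlated with Gpx1 at r = 0.60 and rho = 0.62 (adjusted permutation p of 0.0373 and 0.0250), and with Nfe2l2 at r = 0.57 and rho = 0.59 (adjusted permutation p of 0.0487 and 0.0507). The 15 macrophage and Kupffer cell markers correlated with Gpx1 at r = 0.65 and rho = 0.65 (adjusted permutation p of 0.0487 and 0.0515) and with Gclc at r = 0.51 and rho = 0.50 (adjusted permutation p of 0.0604 and 0.103), with 0.29 without the farthest 2 mice. In level these lists spanned little: 8.401 to 8.403 for endothelial and 8.492 to 8.494 for macrophage markers over all 20 mice. These relations are given on the deposited scale only, and after quantile normalization 3 of the 11 hepatocyte markers had a value. The part of cell type makeup in the correlations between genes was not tested.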

How the data were processed

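Biotin-labelled RNA from 20 livers, 1 mouse each, was read on Affymetrix 3' arrays, per the labels' protocols. Judged by their range, the deposited values are log2 probe set levels; the log base, the scanner's software and every step from image to value (background, normalization, summary of probes) are, in the sources used here, not given. No batch is given. The strong compression of the spread between arrays cannot be undone here, so no difference is read as a fold; the main test took the values as they are.

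Probe sets were named with the platform's gene table: of 45101, 34945 had 1 symbol, 932 had several, 9160 had none listed, and 64 controls were left out. RefSeq held the gene ID of 34741 and altered 0 symbols. Each gene is represented by its brightest probe set (mean of the 20 arrays), with no filter on level; 19 of the 30 genes have several, and in 10 of these all share a sign. Groups come from the sample titles.

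The test was limma 3.58.1 in R 4.3.3, lmFit on 2 groups and eBayes with trend (degrees of freedom: 18 residual, 0.704 prior). P-values are two-sided and Benjamini-Hochberg adjusted over 18193 genes. Intervals of standardized differences come from the noncentral t distribution. Correlations used Python 3.11.15 with numpy 2.4.6 and scipy 1.17.1, figures matplotlib 3.10.9. The tests were checked on simulated data. The members and lists were chosen with earlier results of these data known. All members are named, with values by mouse for those at an unadjusted p under 0.05 and the smallest p of each class, and of each other list the 2 genes of smallest p; Gclc, Gclm, Osgin1 and Gpx3 were added after their values were seen. The marker relations of Gclc, Gpx1 and Nfe2l2 and all pairs of members were also added then. Of 6 pairs planned, Txn1 with Prdx1 could not be computed. Alternatives were other scalings, probe set rules, filters, variance models, array weights, a block, a rank sum test and leaving out mice.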

Additional observations from a re-analysis of the deposited data

Results flagged for a closer look

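Among 60 checks of 30 genes in 2 groups of 10 mice, 4 found a mouse set apart from the rest of its group by a wide gap; chance gives this in about 1 in 20 groups. Slc7a11 in HFD 6 was -3.10 SD from the gene's mean, with the next mouse at -1.15. Gclm in HFD 3 was 2.37, with the next at 0.36. Prdx3 in HFD 3 was -2.55, with the next at -0.59. Gpx4 in HFD 9 was -2.74, with the next at -0.85. All 4 were HFD mice.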

How the results depend on the processing

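No setting brought any of the 30 genes past an adjusted p of 0.05, and 1 passed at 0.10. The count of all genes past 0.05 was 1 when a gene's probe sets were averaged, 4 by the rank sum test, 12 at 0.10, and 0 to 3 with a mouse left out (3 without HFD 3, 1 without each of HFD 6, HFD 9, 002MSXH 2 and 002MSXH 3). The 3 genes at an unadjusted p under 0.05 became 0 under quantile normalization and under centring, 1 among genes above the median level, 1 with centring without 002MSXH 4 and 6, and 2 to 5 with a mouse left out (5 without HFD 3). The 19 genes above 0 became 8 of 28 under quantile normalization and 6 of 30 under centring. Of all genes 1285 of 17985 and 501 of 18193 were above 0 there. With a mouse left out the 19 became 18 to 21, and over all 62 probe sets 35 were above 0. The adjusted p of Prxl2b ran from 0.0645 to 1.00.

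Standardized differences changed sign as follows. Quantile normalization gave Nfe2l2 -0.310, Nqo1 -0.636, Ephx1 -0.171, Cbr3 -0.619, Slc7a11 -0.700, Gclm -0.447, Gsr 0.0449, Txnrd1 -0.793, Txnrd2 -0.393, Prdx2 -0.653, Prdx3 -0.641 and Gpx4 -0.447. Centring gave Nfe2l2 -0.322, Nqo1 -0.570, Cbr1 -0.0398, Cbr3 -0.646, Slc7a11 -0.628, Gclm -0.424, Txnrd1 -0.642, Txnrd2 -0.616, Prdx2 -0.631, Prdx3 -0.617, Prdx4 -0.609, Sod1 -0.665 and Gpx4 -0.636. Leaving out 002MSXH 4 and 6 gave Hmox1 0.106, Gsr 0.0739, Txn1 0.0758 and Sod2 0.135. The mean of probe sets gave Slc7a11 -0.0619, Txn2 0.280, Txnrd1 -0.441, Prdx4 -0.180 and Srxn1 0.423, and array weights gave Txn1 0.0217 and Sod1 -0.0159. Chosen after seeing the data, centring without 002MSXH 4 and 6 gave Hmox1 0.104, Txn1 0.0646 and Sod1 -0.0502, and quantile normalization without them gave Keap1 0.0513, Nqo1 -0.0968, Hmox1 0.962, Slc7a11 -0.291, Gss 0.333, Gsr 1.11, Txnrd1 -0.399 and Sod3 0.0328. Quantile normalization gives 208 genes the same value on all arrays, so Sod1 and Gpx1 have no value there, nor Gclm, Prdx2, Sod1, Gpx1 and Gpx4 without 002MSXH 4 and 6. Beyond these constructions the cause was not tested.

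Also added after seeing the data, r of Gclc with Gclm was 0.39 under quantile normalization; r of Nqo1 with Gclm was 0.82 under it and 0.92 under centring, of Txnrd1 with Srxn1 0.66 and 0.84, and of Prdx2 with Slc4a1 0.98 and 1.00. With the mouse number as a replicate block, 0 genes passed 0.05, 3 of the 30 were at an unadjusted p under 0.05, 19 were above 0, and Prxl2b was at 3.00. The labels do not say whether the numbers pair mice. Same-numbered mice correlated at -0.265 to 0.165, which does not settle it. The signal over background of each probe set is unknown, which limits genes of low level such as Slc7a11 and Nqo1.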
